A study of Folsomia candida with 36 samples.

Results

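The question put to these data was which genes differed between alternate hours of the day once steady change over time was set aside. All 36 libraries of the series were used. The 18 libraries sampled at 24, 48 and 72 h were compared with the 18 sampled at 12, 36 and 60 h, in 1 model that also held treatment and linear time in hours. The choice rested on the sampling times in the labels and on no measured value.

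The animal was the springtail Folsomia candida, and its mRNA was sequenced. It is a white, eyeless soil hexapod that reproduces without males and goes on moulting as an adult. Each library came from a pool of 70 whole animals of the wild-type Berlin strain. The exposed pools stood on LUFA2.2 natural soil with imidacloprid at 0.25 mg per kg dry soil, the concentration given as the EC20 for reproduction, and the control pools on the same soil with water only. There were 3 libraries at each of 12, 24, 36, 48, 60 and 72 h in each treatment. All animals were kept at 20 °C and 75% humidity under a light regime of 16:8 h. The clock hour at which exposure began was not given, so which of the hours compared fell in the light is not known. A pool of whole animals cannot tell a change in the share of a tissue from a change in RNA per cell. The labels name replicates but not how the pools were separated, so p-values measure the spread between these libraries, which may be partly technical.

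Circadian clocks of arthropods run on a feedback loop in which the proteins Clock and Cycle drive the genes period and timeless, whose products then repress them, and light resets the loop each day. Imidacloprid, a neonicotinoid, binds the nicotinic acetylcholine receptors of insect nervous systems. Samples taken 12 h apart see a daily rhythm at only 2 points of its cycle, and a rhythm that passes through the same level at both of these points leaves no difference between them. The deposited table does not pair its gene identifiers with names, so clock genes were not looked up here and genes are given by identifier alone.

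Total counts were 21254060 to 42146055 at 24, 48 and 72 h (median 25777472) and 20280135 to 33852877 at 12, 36 and 60 h (median 25267187). Of 28734 gene models, 19600 (68.2%) passed the filter on low counts. In the smallest library 3 counts amounted to 0.148 CPM, the unit of counts scaled to a fixed total per library, a floor that covers counting error only. Before any comparison, 11 libraries stood apart from the other 25 along the first principal component of the 200 most variable genes. They were spread over both sets of hours, with 6 of 18 libraries at 24, 48 and 72 h and 5 of 18 at 12, 36 and 60 h. They were less even within treatments. In imidacloprid animals 3 of 9 stood at 24, 48 and 72 h and 4 of 9 at 12, 36 and 60 h. In controls 3 of 9 stood at 24, 48 and 72 h and 1 of 9 at 12, 36 and 60 h.

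No gene differed between the hours past the threshold. By edgeR's quasi-likelihood test, 0 of 19600 genes (0%) had an adjusted p under 0.05, and the lowest was 0.155. At an unadjusted p under 0.05 there were 1034 genes (5.28%), against 980 given by 5% of the number tested, of which 502 (2.56%) were higher and 532 (2.71%) lower at 24, 48 and 72 h. This count and its split were not stable. Over 21 alternatives it ranged from 347 to 2813. Without the 24 h libraries there were 347, of which 246 were higher and 101 lower, and without those of 72 h there were 2015, of which 558 were higher and 1457 lower. Without those of 12 or 36 h there were 555 or 1806. Without imidacloprid 48 h replicate 5 there were 1806, of which 608 were higher and 1198 lower. With upper-quartile scaling 401 were higher and 645 lower. Other tools run on the same model gave 0 genes (limma-voom), 18 genes (DESeq2, 0.0918%) and 203 genes (limma-voom with library weights, 1.04%). Linear drift, estimated beside the alternation in the same model, was called in 2208 genes (11.3%), of which 1461 (7.45%) rose and 747 (3.81%) fell with time; without imidacloprid 60 h replicate 3 there were 1456. Without the 24, 60 or 72 h libraries there were 653, 1027 or 640. The median absolute log2 fold change between the hours was 0.11, and the median absolute drift over the 60 h from 12 to 72 h was 0.31. Past 1 on the log2 scale in either direction there were 201 genes for the alternation and 1865 for the drift. The median standard error was 0.17 for the alternation and 0.24 for the drift, so noise enlarges the absolute values of the drift more.

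**Figure D1:**
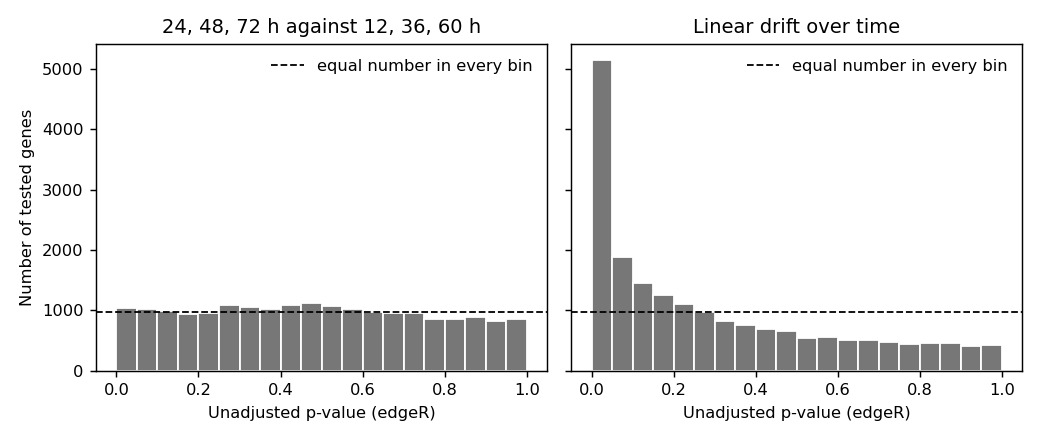
Number of tested genes (y axis) by unadjusted edgeR p-value (x axis, bins of width 0.05), for the alternation (left) and for linear drift (right), with a dashed line at an equal number in every bin. The lowest bin held 1034 genes for the alternation and 5158 (26.3%) for the drift.

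The precision of the comparison was such that a 2-fold difference lay outside the 95% confidence interval of most genes. For 17241 genes (88.0%) the whole interval of the fold change lay within 2-fold in either direction, and for 12366 genes (63.1%) within 1.5-fold. This depended on abundance. Among genes under 1 CPM on average the share within 2-fold was 61.2%, among those from 1 to 10 CPM it was 90.5%, from 10 to 100 CPM 96.5%, and at 100 CPM or more 98.0%. The median standard error fell with abundance over the same classes, as 0.31, 0.18, 0.12 and 0.098 on the log2 scale. These intervals are for single genes and were not adjusted for the number of genes.

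Of the variance of log2 CPM over all tested genes, the alternation held 2.71%, where an equal share per degree of freedom would be 2.86%. Treatment held 2.59%, against the same equal share. Drift held 7.75%. The other differences between time points, with 3 degrees of freedom, held 11.3%, against an equal share of 8.57%. Libraries of the same group held 59.6%, against 68.6%. These shares do not add up to the whole. The part in which the treatments differed in their course over time is not listed. Alternation and drift were each taken beyond the other, so the part common to both is not listed either.

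The few genes nearest to the threshold leaned to 1 side. At an unadjusted p under 0.001 there were 47 genes, against 19.6 by the number tested, and 44 of them were higher at 24, 48 and 72 h and 3 lower. The smallest adjusted p, 0.155, was shared by 8 genes, all higher. Each of the 47 had the same sign in imidacloprid and in control animals when the treatments were fitted apart, which is partly built in, since the same libraries chose them. The 2 largest in each direction are described, chosen after their values were seen because no gene passed the threshold, from the 39 genes under 0.001 with at least 1 CPM on average and the same sign in both treatments.

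Fcan01_02915 was the largest of those that were higher. In imidacloprid animals it stood at 9.34, 2.63 and 1.19 CPM at 24 h, at 3.18, 0.559 and 2.78 CPM at 48 h and at 2.16, 1.84 and 1.35 CPM at 72 h. In the same animals it stood at 0, 0.359 and 0.292 CPM at 12 h, at 2.38, 0.592 and 0.871 CPM at 36 h and at 0.0956, 0.0863 and 0.559 CPM at 60 h. The 24 h libraries were all above the 12 h libraries, while those at 36 and 48 h overlapped.

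In control animals Fcan01_02915 stood at 1.61, 0.535 and 2.26 CPM at 24 h, at 5.03, 1.14 and 0.0681 CPM at 48 h and at 10.1, 14.1 and 13.2 CPM at 72 h. In the same animals it stood at 0.409, 0.323 and 0.274 CPM at 12 h, at 0.284, 1.82 and 0.347 CPM at 36 h and at 0, 0.866 and 0.0899 CPM at 60 h. The 72 h libraries stood highest, and control 48 h replicate 6 lay far below the other libraries of its group. The log2 fold change between the hours was 2.59 ± 0.57 (SE, n = 18 libraries against 18), with an adjusted p of 0.155 by edgeR. It was 2.38 ± 0.73 in imidacloprid animals and 2.31 ± 0.83 in controls (SE, 9 libraries against 9 in each).

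Fcan01_25569 had a pattern of the same shape. In imidacloprid animals it ranged from 0.245 to 2.74 CPM (median 1.98) at 24, 48 and 72 h and from 0 to 1.38 CPM (median 0.173) at 12, 36 and 60 h. In controls it ranged from 0.170 to 7.60 CPM (median 1.65) at 24, 48 and 72 h and from 0.0334 to 0.990 CPM (median 0.182) at 12, 36 and 60 h. The sets overlapped in both treatments. The log2 fold change was 2.55 ± 0.53 (SE, n = 18 against 18), with an adjusted p of 0.155 by edgeR. At 12, 36 and 60 h the libraries held 0 to 33 counts of Fcan01_25569 and 0 to 53 of Fcan01_02915. Many values there lay near the floor of 3 counts. With 1 library left out, the adjusted edgeR p ranged from 0.043 to 0.479 for Fcan01_25569 and from 0.047 to 0.732 for Fcan01_02915. Without the 60 h libraries it was 0.99985 for both. Between neighbouring times there were 10 steps over both treatments, and the group mean moved in the alternating direction at all 10, for both genes. The libraries of the times compared did not overlap at 7 of these steps for Fcan01_25569 and at 5 for Fcan01_02915. Such counts of steps, here and below, are partly built in, since the same libraries chose the genes. They were not made over all tested genes.

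The genes that were lower at 24, 48 and 72 h changed less between the hours than over time. Fcan01_23108 ranged from 15.0 to 100.1 CPM (median 41.7) at 24, 48 and 72 h and from 16.3 to 132.6 CPM (median 33.9) at 12, 36 and 60 h in imidacloprid animals. In controls it ranged from 14.2 to 100.8 CPM (median 23.0) at 24, 48 and 72 h and from 13.1 to 110.7 CPM (median 38.1) at 12, 36 and 60 h. The sets overlapped almost wholly, and the gene rose with time in both treatments. Its drift was 2.71 ± 0.23 on the log2 scale over 60 h (SE, adjusted p 9.33e-10 by edgeR), and its alternation was -0.63 ± 0.16 (adjusted p 0.291). Without linear time in the model the alternation of this gene was -0.01 ± 0.33.

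Fcan01_01090 stood at 0.805, 0.581 and 0.673 CPM at 24 h in imidacloprid animals, below all 3 libraries at 12 h with 1.30, 1.17 and 1.63 CPM. At 24 h in controls it stood at 1.285, 0.535 and 0.663 CPM, against 1.27, 1.49 and 1.42 CPM at 12 h. There 1 library of 24 h lay within the range at 12 h. In imidacloprid animals its mean of 1.38 CPM at 48 h was above that of 1.18 CPM at 36 h, against the alternation. In both treatments its libraries at 72 h overlapped those at 60 h. Its alternation was -0.61 ± 0.16 (SE, n = 18 against 18, adjusted p 0.291 by edgeR), and its drift 0.93 ± 0.22 over 60 h. The group mean moved in the alternating direction at 9 of 10 steps for this gene and at 8 of 10 for Fcan01_23108. It did so without overlap at 4 and 3, counts that are likewise partly built in.

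**Figure D2:**
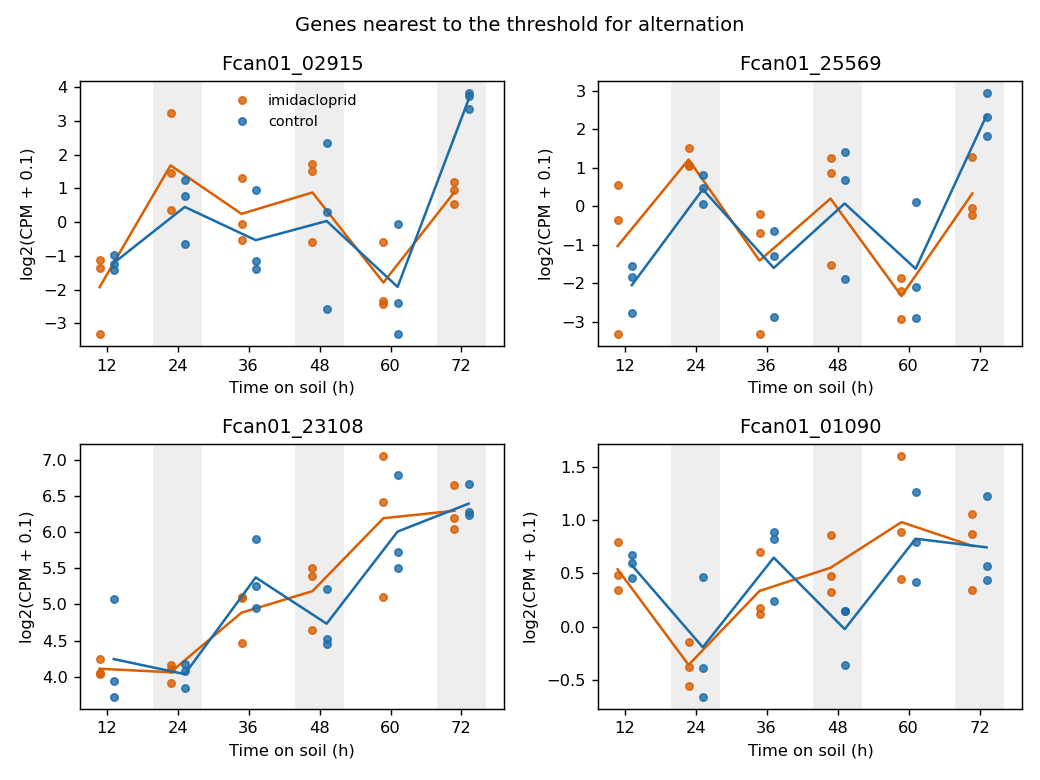
log2(CPM + 0.1) by time on soil in hours for the genes nearest to the threshold; points are libraries, lines join group means, imidacloprid (orange) is drawn left of control (blue), and shaded bands mark 24, 48 and 72 h. The zigzag of the upper genes is widest at 72 h in controls, and the lower genes rise with time beneath a smaller zigzag.

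Whether a gene was called depended on the model of time, on the tool and on single libraries. Without control 48 h replicate 6, 8 genes were called for the alternation, and without control 24 h replicate 3, 1 gene. A separate mean for each of the 12 groups, with a contrast orthogonal to linear time, called 12 genes (0.0612%). Linear time for each treatment, with the alternation also fitted for each treatment and then averaged, called 4 (0.0204%). Leaving out linear time called 11 (0.0561%). Leaving out the 48 h libraries called 17 of 19473 (0.0873%). Every gene on these lists and on that of DESeq2 was higher at 24, 48 and 72 h, while of the 203 genes called by limma-voom with library weights 167 were higher and 36 lower. DESeq2, the 12 group means, the model without time and the model with time for each treatment called 20 genes in all, of which 7 were called by at least 3 of the models and 3 by all 4. With the first principal component of the 200 most variable genes as a covariate 0 genes were called. In a model with quadratic and cubic time 0 genes were called, with 679 genes under 0.05 before adjustment and no adjusted p below 0.975.

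The 4 genes called with linear time for each treatment were Fcan01_06291, Fcan01_25569, Fcan01_04207 and Fcan01_08259. Fcan01_06291, the most abundant, had a mean of 227 ± 15.8 CPM at 24 h, 149 ± 15.2 CPM at 48 h and 126 ± 20.3 CPM at 72 h in imidacloprid animals (SD, n = 3 each). In the same animals it had 197 ± 45.0 CPM at 12 h, 155 ± 20.6 CPM at 36 h and 94.3 ± 2.71 CPM at 60 h (SD, n = 3 each). In controls the means were 211 ± 30.0 CPM at 24 h, 133 ± 10.9 CPM at 48 h and 96.1 ± 2.15 CPM at 72 h, against 176 ± 14.0 CPM at 12 h, 132 ± 4.99 CPM at 36 h and 109 ± 2.17 CPM at 60 h (SD, n = 3 each). The gene fell with time in both treatments, by 1.16 on the log2 scale over 60 h, and the alternation on top of that fall was 0.34 ± 0.07 (SE). In controls the 72 h libraries lay below those of 60 h, against the alternation.

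Fcan01_08259 ranged from 5.66 to 25.6 CPM (median 12.3) at 24, 48 and 72 h and from 0.878 to 12.2 CPM (median 5.80) at 12, 36 and 60 h in imidacloprid animals. In controls it ranged from 5.79 to 39.8 CPM (median 18.0) at 24, 48 and 72 h and from 2.42 to 10.6 CPM (median 3.43) at 12, 36 and 60 h. Its group mean alternated at all 10 steps, 7 of them without overlap, which is again partly built in by the choice of the gene. The log2 fold change was 1.47 ± 0.32 (SE, n = 18 against 18, adjusted p 0.155 by edgeR in the model with a common slope and a common alternation).

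The 20 genes called by DESeq2, the 12 group means, the model without time or that with time for each treatment are described together. The lists of limma-voom with library weights and of the fit without 48 h did not enter the choice. Each gene was centred on its mean log2 CPM over all libraries, and the genes were averaged per library. In imidacloprid animals the average was 1.00 ± 0.35 at 24 h, 0.43 ± 0.56 at 48 h and 0.38 ± 0.16 at 72 h, and -0.74 ± 0.89 at 12 h, 0.04 ± 0.25 at 36 h and -1.10 ± 0.31 at 60 h (SD, n = 3 each). In controls it was 0.45 ± 0.48 at 24 h, 0.16 ± 0.93 at 48 h and 1.71 ± 0.10 at 72 h, and -0.91 ± 0.21 at 12 h, -0.54 ± 0.27 at 36 h and -0.89 ± 0.99 at 60 h (SD, n = 3 each). The highest groups were 72 h in controls and 24 h in imidacloprid animals. Control 48 h replicate 6 stood low in its group, at -0.82, and control 60 h replicate 5 high in its group, at 0.24. Since these genes were chosen for this pattern, no test was made of it.

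**Figure D3:**
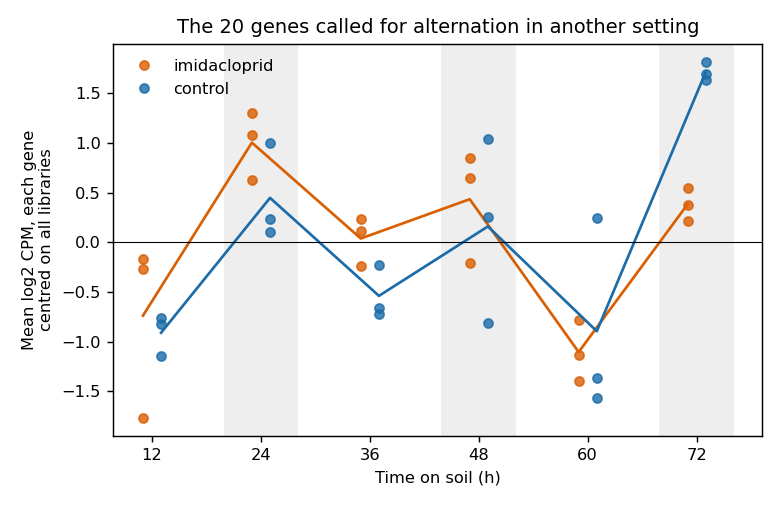
Mean centred log2 CPM (y axis) by time on soil in hours (x axis), for the 20 genes called for alternation in the settings named above. Each point is a library, and lines join group means. Imidacloprid (orange) is drawn left of control (blue), and shaded bands mark 24, 48 and 72 h. The 3 control libraries at 72 h lie between 1.63 and 1.82, above all others.

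The treatments were also fitted apart, each with its own alternation and its own slope of time, over the same 36 libraries. In imidacloprid animals 0 genes (0%) were called by edgeR, and none had an adjusted p below 0.373. There were 445 genes (2.27%) with an unadjusted p under 0.05, of which 354 (1.81%) were higher and 91 (0.464%) lower at 24, 48 and 72 h. The 445 became 684 without imidacloprid 12 h replicate 2 and 231 without the 24 h libraries. With upper-quartile scaling 276 were higher and 122 lower. DESeq2 and limma-voom called 0 there, and limma-voom with library weights 1. In control animals 0 genes (0%) were called, 1290 (6.58%) had an unadjusted p under 0.05, of which 552 (2.82%) were higher and 738 (3.77%) lower, and the smallest adjusted p was 0.0594. The balance of the control list changed with single libraries. Without control 60 h replicate 6 there were 589, with 406 higher and 183 lower, and without control 60 h replicate 5 there were 1974, with 642 higher and 1332 lower. Without the 48 h libraries there were 725, with 541 higher and 184 lower, and without those of 72 h 3052, with 929 higher and 2123 lower. With RLE size factors 679 were higher and 597 lower. DESeq2 called 8 genes in controls, limma-voom 0 and limma-voom with library weights 95. The difference of the alternation between imidacloprid and control animals was called in 0 genes (0%) by edgeR, with 577 (2.94%) at an unadjusted p under 0.05 and a smallest adjusted p of 0.922. The 577 became 179 or 1154 without the 48 or 72 h libraries, 364 without control 48 h replicate 6, 367 when imidacloprid 60 h replicate 5 was left out and 874 when library 71 of the exposed 72 h group was. DESeq2 called 1 gene for that difference, limma-voom 0 and limma-voom with library weights 0. The median standard error of the difference was 0.33 on the log2 scale.

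The gene with the smallest p in imidacloprid animals was Fcan01_19861. It stood at 3.61, 7.21 and 1.03 CPM at 24 h, at 0.0795, 0.664 and 1.89 CPM at 48 h and at 0.261, 0.754 and 0.138 CPM at 72 h, against 0.0975, 0.0598 and 0.125 CPM at 12 h, 0, 0.542 and 0 CPM at 36 h and 0.127, 0.173 and 0 CPM at 60 h. The highest were 2 of the libraries at 24 h, and those at 48 and 72 h overlapped the other set. In all 18 control libraries it stood at 0.229 CPM or less, with 5 counts or fewer, near the floor of 3 counts. The gene averaged 0.495 CPM over all libraries and passed the filter on low counts only through exposed libraries, where it was high. An alternation in controls could therefore hardly be measured for this gene. Its alternation was 3.80 ± 0.76 in imidacloprid animals (SE, adjusted p 0.373 by edgeR) and 0.10 ± 0.97 in controls. The difference had an unadjusted edgeR p of 0.0098 and an adjusted p of 0.922.

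The gene with the smallest p in controls was Fcan01_04207. It stood in imidacloprid animals between 0.752 and 1.06 CPM (median 0.874) at 24, 48 and 72 h and between 0.130 and 0.987 CPM (median 0.376) at 12, 36 and 60 h. In controls it stood between 0.136 and 2.49 CPM (median 1.16) at 24, 48 and 72 h and between 0.0667 and 0.390 CPM (median 0.145) at 12, 36 and 60 h. In controls all but control 48 h replicate 6 of the first set lay above the whole second set. That second set held 2 to 11 counts per library, near the floor of 3 counts. The gene averaged 0.722 CPM over all libraries. Its alternation was 1.03 ± 0.41 in imidacloprid animals and 2.44 ± 0.44 in controls (SE, adjusted p 0.0594 by edgeR in controls). Its adjusted p was under 0.05 in 6 of the 36 fits that left out 1 library, those without control 48 h replicate 6 (0.0021), control 12 h replicate 6 (0.018), imidacloprid 12 h replicate 2 (0.018), control 36 h replicate 3 (0.027), imidacloprid 60 h replicate 3 (0.040) and imidacloprid 12 h replicate 5 (0.044), and it was the only gene called in controls in each of them. Over all 36 such fits it ranged from 0.0021 to 0.355. Over the 19 alternatives that tested this gene in controls, each by its own tool, it ranged from 2.96e-05 to 0.762.

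Side by side, the alternation in imidacloprid animals and that in controls, which come from separate libraries, had the same sign in 50.2% of all tested genes. Across the 19600 genes Pearson's correlation was -0.26 and Spearman's 0.025, given as a description since genes are not independent. Of the 445 genes under 0.05 in imidacloprid animals 72.1% had the same sign in controls. Of the 1290 genes under 0.05 in controls 64.0% had the same sign in imidacloprid animals, made up of 50.4% of the 552 that were higher and 74.3% of the 738 that were lower. Both lists shared 76 genes, which are 17.1% of the imidacloprid list and 5.89% of the control list, beside 6.58% and 2.27% of all genes on the other list. Of these 76, 60 were higher in both treatments, 11 were lower in both and 5 had opposite signs.

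**Figure D4:**
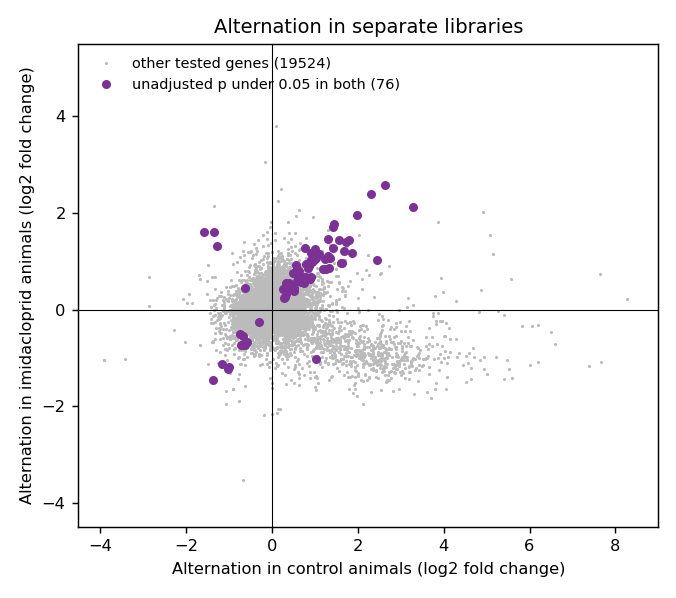
Alternation as log2 fold change in imidacloprid animals (y axis) and in control animals (x axis) for 19600 genes; the 76 genes with an unadjusted p under 0.05 in both are drawn large. Most of the 76 lie in the upper right, and a separate band of genes extends to the right at values below 0 on the y axis.

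The band of genes with a large alternation in controls and the opposite sign in imidacloprid animals followed the libraries that stood apart. A log2 fold change above 1.5 in controls and below 0 in imidacloprid animals was found in 514 genes, a group picked after its values were seen. Their median alternation was -0.92 in imidacloprid animals and 2.51 in controls. Of the 514, 193 had an unadjusted edgeR p under 0.05 in controls. These 193 were among the 274 genes under 0.05 in controls that were higher there and lower in imidacloprid animals. The median level of the 514 was 0.308 to 2.35 CPM in the 11 libraries that stood apart. It was 0 to 0.0493 CPM in the other 25, with no overlap. The median correlation of these genes with the first principal component over the 36 libraries was 0.95, and 495 of the 514 (96.3%) exceeded 0.8, against 3.54% of all tested genes. Of the 200 genes that make up the component 124 were among the 514. The split of the libraries, the correlation and the change with the covariate given next are therefore partly built in. With the component as a covariate, the median alternation of the group was -0.13 in imidacloprid animals and -0.19 in controls. The 20 genes described above did not share this. Their median correlation with the component was -0.06, and their median alternation 1.30 without and 1.36 with the covariate. This is partly built in as well. A gene that follows the component varies within both sets of hours, and such spread makes a call less likely.

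The sets of hours differ in mean time, 48 h against 36 h, so that a contrast without linear time takes up 0.2 of the drift over 60 h. For the 1461 genes that rose with time the median alternation was -0.15 with linear time in the model and 0.04 without it, and 158 and 61 of them had an unadjusted p under 0.05. For the 747 genes that fell the median was 0.04 with linear time and -0.09 without, and 50 and 97 had an unadjusted p under 0.05. Over all 19600 tested genes these counts were 1034 and 1119. Of the 158 genes 145 were lower, and of the 50 genes 42 were higher. This lean is partly built in. The genes were chosen by the drift of the same fit, and time and alternation correlate at 0.29 over the libraries. The 11 genes called without linear time were all higher, with a median log2 fold change of 1.16 with time in the model and 1.34 without, and their adjusted p with time in the model was 0.155 to 0.184. Of these 11, 1 was called for drift.

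**Figure D5:**
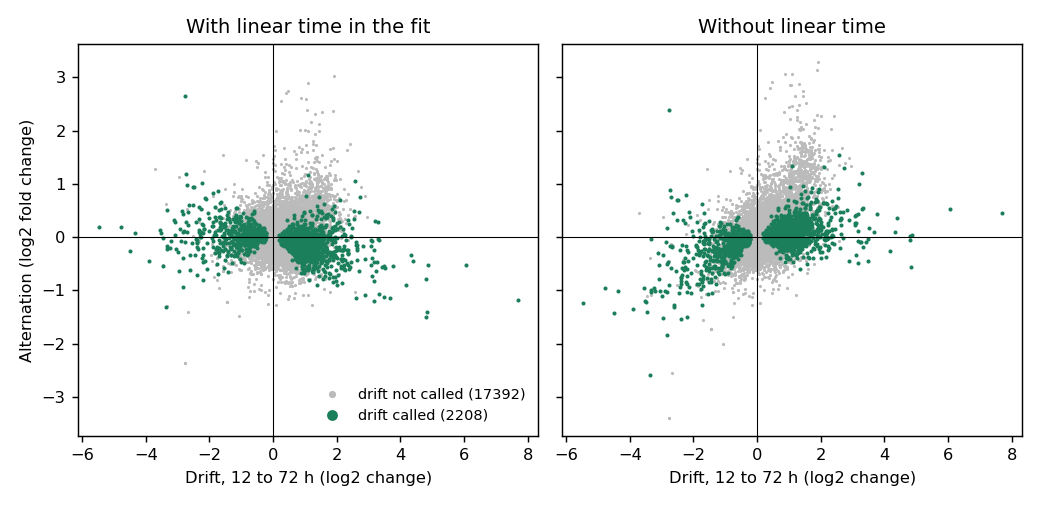
Alternation as log2 fold change (y axis) against drift from 12 to 72 h as log2 change (x axis) for 19600 genes, with linear time in the model (left) and without it (right); green points are the 2208 genes called for drift. Of the 747 falling genes, 171 lie above 0 on the right and 482 on the left. Of the 1461 rising genes, 894 lie above 0 on the right and 277 on the left.

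The genes with the steepest drifts are given with their alternation in both models. Fcan01_26995 stood at 33.4 to 48.3 CPM at 72 h and at 0.628 to 1.82 CPM at 12 h in imidacloprid animals, and at 20.2 to 30.7 CPM at 72 h and at 0.595 to 1.37 CPM at 12 h in controls. Its drift was 6.07 ± 0.45 over 60 h (SE, adjusted p 4.28e-11 by edgeR), and its alternation was -0.53 ± 0.29 with linear time in the model and 0.53 ± 0.66 without it. Fcan01_17222 also rose, by 4.81 ± 0.54, with an alternation of -0.79 ± 0.34 with linear time and -0.05 ± 0.58 without. The covariate changed the sign for the one gene and made the negative value of the other larger.

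Among genes that fell with time, Fcan01_06632 stood at 3.92 to 11.2 CPM at 72 h and at 10.3 to 75.8 CPM at 12 h in imidacloprid animals, and at 0.388 to 1.21 CPM at 72 h and at 34.7 to 62.7 CPM at 12 h in controls. Its drift was -4.79 ± 0.65 (SE, adjusted p 5.44e-06 by edgeR) and its alternation 0.18 ± 0.47 with linear time and -0.96 ± 0.69 without. Fcan01_17511 fell as well, with a drift of -4.49 ± 0.62 and an alternation of -0.25 ± 0.41 with linear time and -1.42 ± 0.58 without. The balance of rising and falling genes turned without the 72 h libraries, where 242 genes rose and 398 fell.

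A zigzag should show at each inner time point, so each was compared with the mean of its neighbours. By edgeR 0 genes (0%) were called at 24, 36, 48 or 60 h. At an unadjusted p under 0.05, 1517 genes (7.74%) set 24 h apart from its neighbours, 383 (1.95%) did so for 36 h, 1011 (5.16%) for 48 h and 584 (2.98%) for 60 h. These counts rested in part on imidacloprid 48 h replicate 5, without which they were 973 at 36 h, 5709 at 48 h and 1353 at 60 h. Without control 48 h replicate 2 or 6 the count at 48 h was 538 or 464, and without imidacloprid 36 h replicate 6 it was 1653 at 48 h and 646 at 36 h. It was 586 at 36 h without control 24 h replicate 3, and 888 and 389 at 60 h without control 60 h replicates 5 and 6. Genes were called at 60 h without control 60 h replicate 5 (44, all lower) and without control 48 h replicate 6 (1), and at 24 h without control 12 h replicate 6 (2), imidacloprid 12 h replicate 2 (1) and control 24 h replicate 3 (1). DESeq2 called 38, 2, 2 and 25 genes at these times in that order, limma-voom 0 at each, and limma-voom with library weights 682, 38, 4057 and 23. The local values at 24 and at 60 h share no libraries. An alternating gene has opposite signs at these times, as 56.1% of all tested genes had, and Pearson's correlation between them was 0.01 and Spearman's -0.13. Of the 143 genes under 0.05 at both times 90.9% had opposite signs, 114 of them higher at 24 h and lower at 60 h and 16 the reverse.

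Linear drift and alternation leave 3 degrees of freedom of time, which were tested jointly. This departure was called in 3 genes (0.0153%) by edgeR, with 2955 (15.1%) at an unadjusted p under 0.05. The 2955 became 6366 without imidacloprid 48 h replicate 5 and 1670 without the 72 h libraries. Fcan01_01465 had an adjusted p of 0.00089, Fcan01_26946 of 0.0035 and Fcan01_27967 of 0.033. Fcan01_01465 averaged 7.41 ± 2.04, 5.60 ± 1.60, 2.89 ± 1.11, 2.80 ± 0.94, 4.84 ± 1.41 and 6.40 ± 1.32 CPM from 12 to 72 h in imidacloprid animals, and 5.72 ± 2.02, 4.48 ± 0.68, 2.32 ± 0.33, 2.13 ± 0.34, 3.32 ± 1.26 and 4.86 ± 0.59 CPM in controls (SD, n = 3 each). It was lowest at 36 and 48 h in both treatments, and its alternation was 0.09 ± 0.22. Fcan01_26946 was lowest at 48 h in both treatments, with 1.18 ± 0.37 CPM in imidacloprid animals and 1.33 ± 0.21 CPM in controls (SD, n = 3 each). Fcan01_27967 had its highest mean at 48 h in both treatments, and it missed the threshold in 21 of the 36 fits that left out 1 library. The count was 1269 genes without imidacloprid 48 h replicate 5, 5 without control 24 h replicate 3, 9 without the 60 h libraries, 0 without those of 36, 48 or 72 h, and 308 by DESeq2.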

How the data were processed

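TRIzol extraction and TruSeq stranded mRNA libraries were used, per the labels' protocols. Per the submitters' processing notes, reads were trimmed with Trim Galore (cut-adapt, version given as 0.6.7), assigned to transcripts with Salmon 1.4.0, and DESeq2 1.28.1 is named. No source used here gives the release of the transcriptome. The authors deposited estimated counts per gene model, all of them whole numbers, in 1 table of 28734 models by 36 libraries, before normalization. Since Salmon shares out reads among similar transcripts, values of near-identical copies are uncertain. Of the gene identifiers, 0 were found in a gene table of 27231 genes of the species, so names, sequences and lists by function were not used here.

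Groups came from treatment and time in the labels. Both libraries numbered replicate 4 among the imidacloprid 72 h samples are called libraries 71 and 72. Libraries of a group differed by a chi-square per degree of freedom of 22.1 to 366.8 over 36 pairs, more than counting noise gives, so none is the same library deposited again. This does not show separate pools: libraries 71 and 72 carry the same sample code in their titles and may share a pool, yet both are counted in n. Without library 71 or 72 the alternation was called in 0 genes, with 1072 or 1087 at an unadjusted p under 0.05.

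Tests used edgeR 4.0.16 in R 4.3.3 (limma 3.58.1 and DESeq2 1.42.0 as alternatives). The filter was filterByExpr over the 12 groups, with a minimum count of 10 and a minimum total of 15, and scaling was by TMM, with factors of 0.89 to 1.10. The biological coefficient of variation was 39.7%, with 32 residual degrees of freedom. Robust quasi-likelihood tests were adjusted by Benjamini-Hochberg over all tested genes at 0.05. The standard error is the absolute log2 fold change divided by the square root of F. Positive values are higher at 24, 48 and 72 h. CPM uses TMM-scaled totals, and log2 CPM a prior count of 2. The steps were checked on simulated counts. Members and lists were chosen with earlier results of these data known. The rule for named genes took the 2 largest changes per direction among called genes of at least 1 CPM with the same sign in both treatments, all genes where 5 or fewer were called, and the smallest p beside these. For the alternation, with 0 called, it was applied to genes with an unadjusted p under 0.001.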

Additional observations from a re-analysis of the deposited data

How the results depend on the processing

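The alternation over all libraries, with 0 genes called, gave 0 in 15 of 21 alternatives; it gave 18 by DESeq2, 203 by limma-voom with library weights, 12 with 12 group means, 11 without linear time, 4 with linear time for each treatment and 17 without the 48 h libraries. Leaving out each library in turn gave 0 to 8. The drift, with 2208, gave 4774 with library weights, 1398 with the logarithm of time, 653, 1027 and 640 without the 24, 60 or 72 h libraries, 1391 without irregular titles, and 1456 to 2816 with a library left out. In controls there were 8 by DESeq2, 95 with library weights, 2 with the principal component, 1 each with RLE size factors, 12 group means, no linear time and no 48 h libraries, and 0 to 1 with a library left out. In imidacloprid animals there was 1 with library weights, and for the difference 1 by DESeq2, with 0 throughout when a library was left out. The departure, with 3, gave 308 by DESeq2, 6525 with library weights, 9 without 60 h, 0 without 36, 48 or 72 h, and 2 to 1269 with a library left out. DESeq2 and library weights gave 38 and 682 at 24 h, 2 and 38 at 36 h, 2 and 4057 at 48 h, and 25 and 23 at 60 h, the component 1 each at 36 and 48 h, and 12 group means 1 at 60 h. Leaving out a library gave 0 to 2 at 24 h, 0 at 36 and 48 h and 0 to 44 at 60 h. The cause of these differences was not tested. Of the named genes' values under all alternatives, 652 kept their direction and side of the threshold, 27 came to pass it, 38 no longer passed it, and 0 changed sign. Whether replicate numbers pair the libraries was not settled. Deviations of 8 same-numbered pairs correlated at -0.27 to 0.45 (median -0.10), against a median of 0.011 for pairs with other numbers. So few pairs cannot exclude a shared effect of the replicate number. With the replicate block 0 genes were called for the alternation and 1178 for drift, and the unadjusted counts under 0.05 were 749 in controls, against 1290, and 313 for the difference, against 577; no other count moved by more than 1.5 times. Intervals were widest for genes under 1 CPM; depth was not varied.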
